A study of Homo sapiens with 18 samples.

Results

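Glutathione S-transferases are enzymes that join the tripeptide glutathione to reactive, often electrophilic compounds such as drugs and lipid peroxidation products, so that the conjugates can be pumped out of the cell and broken down. The soluble enzymes are grouped into classes by sequence, among them alpha, mu, omega and pi, while the kappa enzyme resides in mitochondria and peroxisomes and the microsomal enzymes are a separate, membrane-bound family. In squamous epithelium and its tumors the pi enzyme GSTP1 is the best known member, and several genes of the family are known targets of NRF2, the transcription factor encoded by NFE2L2 that answers oxidative and electrophilic stress.

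The 10 genes described here are GSTA4, GSTK1, GSTM1, GSTM2, GSTM3, GSTM4, GSTO1, GSTP1, MGST1 and MGST2. They were chosen by symbol from the 19901 genes of a raw count table, and all 10 passed the filter on low counts, which left 15475 genes for the tests. The table holds 18 mRNA sequencing libraries from 3 established head and neck squamous carcinoma lines, with 3 numbered replicates in each of 6 groups. Untreated Detroit 562 (pharyngeal carcinoma, taken from a metastasis), FaDu (hypopharynx) and SCC-9 (tongue) served as controls, and the other libraries came from the same lines given 50 ng/mL hepatocyte growth factor (HGF), the ligand of the receptor tyrosine kinase MET, for 16 h according to the sample records (the series record gives 48 h). Each tumor site is represented by 1 line, and the study's methods say that the experiment was repeated, but the labels do not say which libraries were separate cultures, so p-values measure the spread between these libraries, which may be partly technical. According to the study's methods, SCC-9 was grown in a different medium from the other lines, with hydrocortisone added. In every comparison with SCC-9, line and medium therefore cannot be told apart. The comparisons ask whether HGF altered the expression of these genes in each line, whether that response differed between lines, and how the untreated lines differed.

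Library totals lay between 35304770 and 44003970 counts. Levels of a gene across libraries are given as normalized counts, the raw count divided by a factor for library size and composition (TMM), and levels across genes as normalized counts per kb of exon. Differences were tested with edgeR's quasi-likelihood test, p-values were adjusted over all tested genes, and a gene is said to be called where the adjusted p was below 0.1 and the log2 fold change at least 0.4 in size. As these are bulk libraries, fewer cells expressing a gene and less RNA per cell cannot be told apart. In the Detroit 562 controls MET had the highest mean, 31810 ± 1510 normalized counts (SD, n = 3), against 11600 ± 709 in SCC-9 and 5941 ± 462 in FaDu. All 10 epithelial and squamous markers were detected in every group. Their summed level lay between 259400 and 356000 normalized counts in the Detroit 562 controls and between 182500 and 265800 after HGF, and at 343200 or more in every library of the other lines. The fibroblast markers summed to between 1196 and 2179 normalized counts in the Detroit 562 controls and between 601.4 and 1106 after HGF, with 5 of 7 markers under 10 counts in every library of either group and PDGFRB at 0 in both. In FaDu they summed to between 136.7 and 274.2, and in SCC-9 to between 3110 and 3986 in the controls and between 2422 and 3261 after HGF. Leukocyte markers, of which 4 of 6 were under 10 counts in every library of each group, summed to between 817.5 and 1635 normalized counts in the Detroit 562 controls and between 1506 and 2267 after HGF, to between 871.1 and 1375 and between 1383 and 1594 in FaDu, and to between 2511 and 2630 in SCC-9. Endothelial markers summed to between 48.58 and 120 normalized counts in the Detroit 562 controls and between 25.62 and 46.63 after HGF. In FaDu they summed to between 102.6 and 334.3 in the controls and between 63.04 and 197.6 after HGF. The SCC-9 sums were between 40.88 and 66.7 in the controls and between 36.42 and 47.92 after HGF. The part of these signals in the results below was not tested.

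The library SCC-9 HGF 3 stood apart from its group. Among the genes with over 1000 counts in every FaDu library, 13 had a median of at most 10 counts in SCC-9, and MGST1 was among them. Their counts summed to 894 in SCC-9 HGF 3 and to between 26 and 78 in the other 5 SCC-9 libraries. By normalized counts, each of the 13 genes had in SCC-9 HGF 3 between 1.61% and 2.99% of its level in FaDu HGF 3, with a median of 2.14%. The cause was not tested, and the members' results in SCC-9 are given with and without it.

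**Figure D1:**
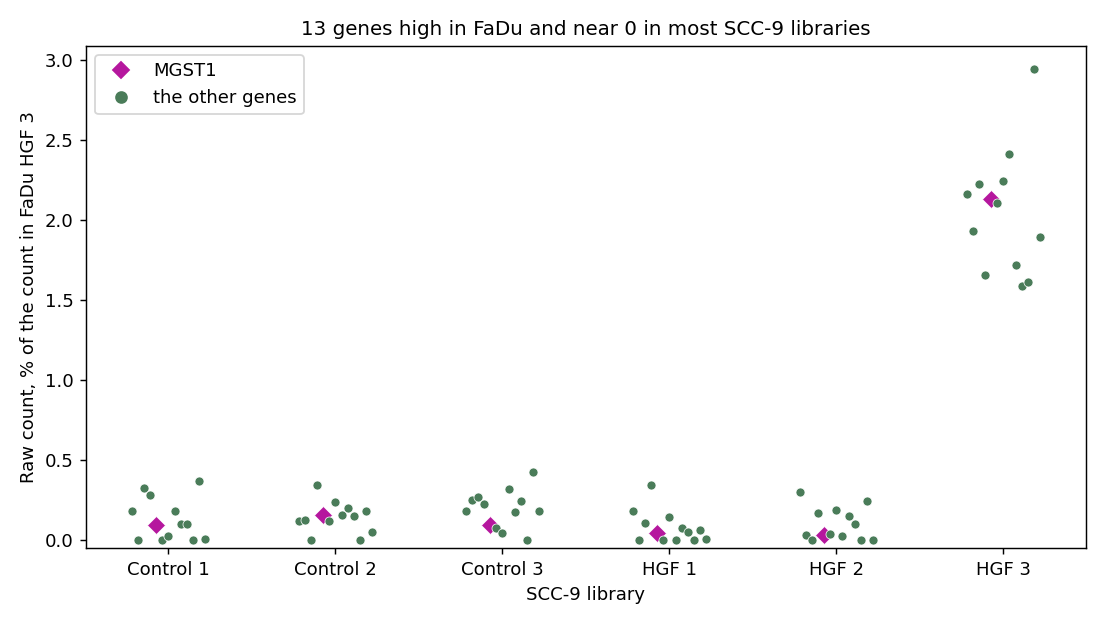
Raw counts of the 13 genes in the 6 SCC-9 libraries (x axis), as a percentage of the count in the library FaDu HGF 3 (y axis), with 1 point per gene and MGST1 as a diamond. Taken from normalized instead of raw counts, the percentages were between 1.61% and 2.99% in SCC-9 HGF 3 and at most 0.452% in the other 5 libraries.

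The mu-class genes cannot be counted independently of each other. In the coordinates of the count table (GRCh38), GSTM1 (chr1:109687814-109709039) lies wholly within the extent of GSTM2 (chr1:109668022-109709551), and GSTM4 (chr1:109656081-109674836) overlaps GSTM2 over 6815 bases, all on the plus strand. GSTM3 (chr1:109733932-109741038) lies close by on the minus strand. Because the counting included introns and assigned a read to each gene it overlapped, every GSTM1 count was also a GSTM2 count. GSTM1 amounted to between 71.9% and 75.2% of the GSTM2 count in the Detroit 562 libraries. The coding sequences are also alike. Of all 75-base windows of the canonical transcripts, 75 bases being the read length, 45.2% of those of GSTM1, 40.8% of those of GSTM2 and 9.39% of those of GSTM4 occurred identically in transcripts of another gene, while none of those of GSTM3, GSTA4, GSTK1, GSTP1, MGST1 or MGST2 did. The start of the coding sequence is shown here for the 4 mu genes, taken from GENCODE 44 transcripts on GRCh38, 90 bases from the start codon on (for GSTM3, whose reading frame begins earlier, from 12 bases past it), with capitals marking bases that differ from GSTM1.
GSTM1: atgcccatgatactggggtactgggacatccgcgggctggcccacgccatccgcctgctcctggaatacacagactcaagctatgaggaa
GSTM2: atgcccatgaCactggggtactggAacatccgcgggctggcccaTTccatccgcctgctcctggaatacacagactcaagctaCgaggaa
GSTM4: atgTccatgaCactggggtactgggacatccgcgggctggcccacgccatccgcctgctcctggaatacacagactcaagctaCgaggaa
GSTM3: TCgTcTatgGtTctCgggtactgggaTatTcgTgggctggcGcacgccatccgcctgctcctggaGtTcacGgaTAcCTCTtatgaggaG
GSTM2 differed from GSTM1 at 5 of these 90 bases and GSTM4 at 3, whereas GSTM3 differed at 21. Values for GSTM1, GSTM2 and GSTM4 are therefore uncertain as to which of the 3 genes gave the reads.

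Promoters are shown for the 4 genes on which the HGF comparison and the levels turn: GSTA4 and GSTM4, which were lower after HGF in Detroit 562, GSTO1, which was higher, and GSTP1, which had the highest level. Each runs from 250 bases before to 50 bases after the RefSeq transcription start on GRCh38.p14. Capitals mark matches on either strand to TGACNNNGC, the core letters of the antioxidant response element bound by NRF2, and to TGANTCA, the letters bound by AP-1 factors.
GSTA4 (chr6:52995235-52995534, minus strand): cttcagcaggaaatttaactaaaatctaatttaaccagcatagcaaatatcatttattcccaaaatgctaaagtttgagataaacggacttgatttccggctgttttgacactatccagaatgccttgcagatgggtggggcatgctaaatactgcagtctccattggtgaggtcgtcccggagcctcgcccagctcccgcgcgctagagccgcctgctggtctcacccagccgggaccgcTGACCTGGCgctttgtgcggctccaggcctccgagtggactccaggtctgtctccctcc
GSTM4 (chr1:109655849-109656148, plus strand): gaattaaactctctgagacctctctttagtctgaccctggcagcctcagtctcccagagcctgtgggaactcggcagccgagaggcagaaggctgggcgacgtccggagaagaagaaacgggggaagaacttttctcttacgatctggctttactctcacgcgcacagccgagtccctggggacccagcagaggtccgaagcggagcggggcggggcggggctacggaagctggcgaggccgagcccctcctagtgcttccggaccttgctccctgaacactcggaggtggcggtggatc
GSTO1 (chr10:104254642-104254941, plus strand): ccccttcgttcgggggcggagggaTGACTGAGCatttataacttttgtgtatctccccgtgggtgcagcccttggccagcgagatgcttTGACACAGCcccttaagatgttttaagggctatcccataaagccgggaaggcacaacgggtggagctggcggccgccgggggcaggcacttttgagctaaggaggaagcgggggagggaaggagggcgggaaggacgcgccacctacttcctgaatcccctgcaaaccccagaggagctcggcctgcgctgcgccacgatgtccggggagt
GSTP1 (chr11:67583562-67583861, plus strand): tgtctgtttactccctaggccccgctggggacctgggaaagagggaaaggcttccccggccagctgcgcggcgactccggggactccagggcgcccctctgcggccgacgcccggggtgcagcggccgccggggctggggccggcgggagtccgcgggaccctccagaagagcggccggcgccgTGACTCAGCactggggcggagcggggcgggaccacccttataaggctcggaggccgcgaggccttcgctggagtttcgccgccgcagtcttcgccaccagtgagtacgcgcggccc
Of the 10 genes, 9 had a RefSeq promoter here, 11 promoters in all (MGST2 had none). TGACNNNGC was found in 5 of the 11, those of GSTA4, GSTM1, GSTO1 and GSTP1 and 1 of the 3 of MGST1, against 13.3% of all 35116 promoters of the same length. TGANTCA was found in that of GSTP1 alone, where it overlaps the other match, against 7.71% of all promoters. The GC box letters GGGCGG were found in 8 of the 11, against 45.0% of all promoters. These are matches of letters in this window and say nothing of binding.

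In the untreated lines GSTP1 (chr11:67583595-67586656) stood far above the rest. Scaled by exon length, its level was 54500 ± 1980 normalized counts per kb in FaDu, 30600 ± 3370 in Detroit 562 and 6830 ± 405 in SCC-9 (SD, n = 3 each). It accounted for 94.5% ± 0.293 of the summed length-scaled level of the 10 genes in FaDu, 88.7% ± 0.46 in Detroit 562 and 74% ± 1.51 in SCC-9. GSTO1 (chr10:104235356-104267459), the omega-class enzyme that acts as a thioltransferase and dehydroascorbate reductase, came next in all 3 lines by this length, with 1380 ± 75.5, 1510 ± 88.1 and 1910 ± 74.6 normalized counts per kb, in the same order of lines. Its share of the summed length-scaled level was 20.8% ± 1.55 in SCC-9 but 4.4% ± 0.32 in Detroit 562 and 2.4% ± 0.0841 in FaDu. These shares depend on the length used, since an exon union overstates the length of genes with many rare exons. With the longest transcript as the length MGST1 stood above GSTO1 in Detroit 562 (7.8% against 6.04%) and in FaDu (5.41% against 3.46%), and with the canonical transcript it did so as well (8.26% against 3.56% and 5.62% against 2%). GSTP1 was the highest and, in SCC-9, GSTO1 the next with each of the 3 lengths.

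Below these 2 genes the order of levels scaled by the exon union changed from line to line. In Detroit 562 it ran from MGST1 (908 ± 61.3 normalized counts per kb) over GSTM1 (484 ± 61.1), MGST2 (298 ± 32.6), GSTK1 (269 ± 20.3), GSTM2 (182 ± 26.2), GSTA4 (151 ± 48.3) and GSTM4 (84.7 ± 16.8) to GSTM3 (16.4 ± 3.47), where MGST2 and GSTK1, and GSTM2 and GSTA4, were within their spread. In FaDu MGST1 was again the third (1000 ± 48.5 normalized counts per kb), GSTK1 (294 ± 21.1) and MGST2 (279 ± 34.1) could not be ordered, GSTM4 (153 ± 43.4) preceded GSTM1 (31.8 ± 10.7), and of the 3 lowest, GSTM2 (13.8 ± 4.85), GSTM3 (9.77 ± 6) and GSTA4 (7.06 ± 1.17), GSTM3 was within the spread of both others. In SCC-9 GSTK1 (238 ± 22.9 normalized counts per kb) and MGST2 (145 ± 7.73) were followed by GSTM4 (45.5 ± 4.25), GSTA4 (23.7 ± 1.15), GSTM3 (10.8 ± 1.95), GSTM1 (8.44 ± 2.04) and GSTM2 (4.34 ± 1.21), with GSTM3 and GSTM1 within their spread. MGST1 was the lowest there, with 0.959 ± 0.279 normalized counts per kb. The place of the mu genes in this order turned with the length and the counting. In Detroit 562 the share of GSTM2, 0.527% of the summed level, was 1.6% with canonical transcripts, above MGST2 (1.44%), GSTK1 (1.24%) and GSTM1 (1.18%), and 0.142% when counted outside GSTM1, below GSTA4 (0.432%) and GSTM4 (0.245%). With canonical transcripts GSTM4 (0.364%) was also above GSTA4 (0.283%) there.

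**Figure D2:**
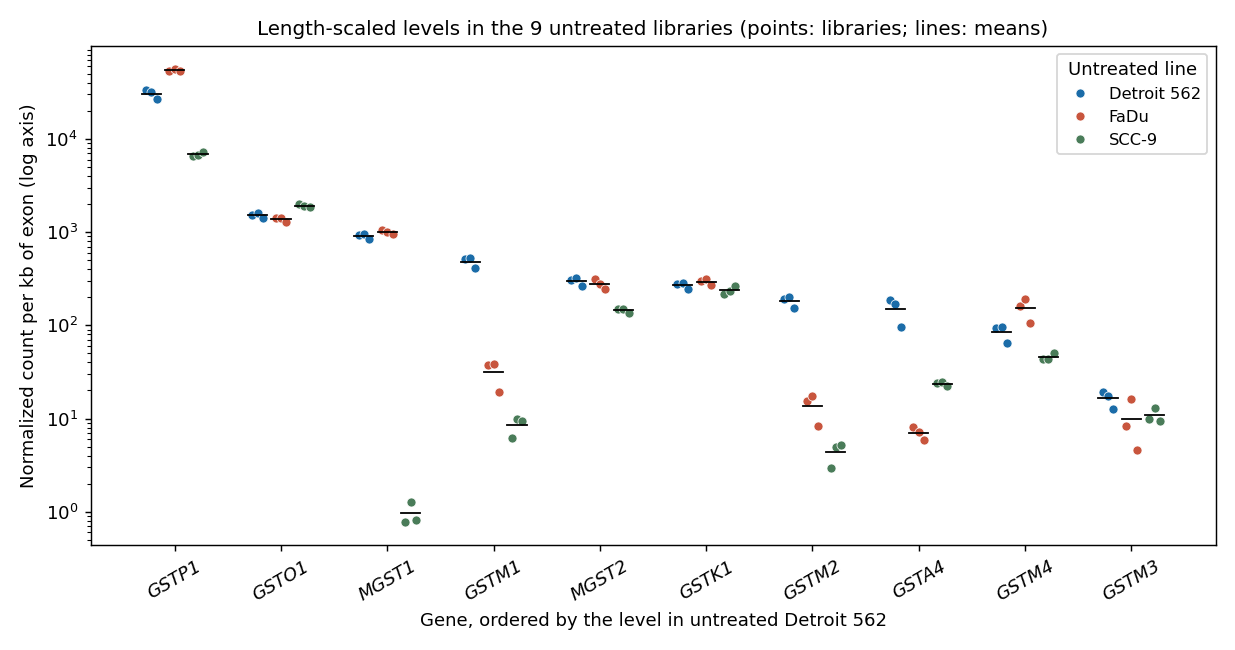
Length-scaled levels (normalized counts per kb of exon, log axis) of the 10 genes in the 9 untreated libraries, with 1 point per library and a line at each mean. GSTP1 lies highest in all 3 lines, and MGST1 falls from about the level of GSTO1 in Detroit 562 and FaDu to 0.959 normalized counts per kb in SCC-9.

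The microsomal gene MGST1 (chr12:16347142-16609259), whose product conjugates glutathione and reduces lipid peroxides in membranes, separated SCC-9 from the other lines most widely. The 3 SCC-9 controls had 5.754, 9.528 and 6.131 normalized counts (6, 10 and 6 raw counts), the Detroit 562 controls 6982, 7054 and 6230, and the FaDu controls 7858, 7431 and 7141. The log2 difference was 9.86 (SE 0.74) between untreated Detroit 562 and SCC-9 (edgeR quasi-likelihood test, adjusted p = 2.51e-09) and 10.00 (SE 0.741) between untreated FaDu and SCC-9 (adjusted p = 2.27e-09). MGST2 (chr4:139665768-139740745), a related membrane enzyme that can also form leukotriene C4, was 2.05-fold higher in Detroit 562 and 1.92-fold higher in FaDu than in SCC-9 (adjusted p = 7.05e-07 and 2.26e-06 in the same test). Between Detroit 562 and FaDu neither microsomal gene was called, with log2 differences of -0.15 (95% confidence interval -1.02 to 0.73) for MGST1 and 0.09 (-0.16 to 0.34) for MGST2. All groups shared 1 estimate of the spread of MGST1, and without SCC-9 HGF 3 its log2 differences were 9.86 (SE 0.162), 10.01 (SE 0.162) and -0.15 (-0.34 to 0.05) in the same order of comparisons.

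GSTA4, the alpha-class enzyme that conjugates the lipid peroxidation product 4-hydroxynonenal (chr6:52977948-52995378), and the mu-class genes GSTM1 and GSTM2 set Detroit 562 apart. GSTA4 had 395, 352.8 and 201.9 normalized counts in the Detroit 562 controls, 17.14, 15.1 and 12.24 in those of FaDu and 50.83, 51.45 and 47.01 in those of SCC-9, and no 2 of these groups overlapped. It was 21.2-fold higher in Detroit 562 than in FaDu (adjusted p = 6.35e-10) and 6.35-fold higher than in SCC-9 (adjusted p = 4.99e-08, edgeR). GSTM1 had 1286, 1320 and 1039 normalized counts in the Detroit 562 controls, 93.29, 97.67 and 48.94 in those of FaDu and 15.34, 24.77 and 23.5 in those of SCC-9. GSTM1 thus differed by a log2 value of 3.93 (SE 0.244) between Detroit 562 and FaDu and by 5.83 (SE 0.286) between Detroit 562 and SCC-9. GSTM2 differed in the same direction, by log2 values of 3.73 and 5.39, and with the counts inside GSTM1 removed these were 3.30 and 4.60. GSTM4 showed another order and was highest in FaDu, where it was 1.81-fold higher than in Detroit 562 (adjusted p = 0.00292) and 3.37-fold higher than in SCC-9 (adjusted p = 3.72e-06, edgeR). GSTM3, the mu gene that shares no read-length window with another gene, was called between no 2 untreated lines (log2 differences 0.76, 0.60 and -0.15, adjusted p = 0.113, 0.193 and 0.755). A further edgeR fit took the replicate number as a block shared by the 3 lines. In it GSTM3 was called higher in Detroit 562 than in FaDu (log2 0.82, adjusted p = 0.0234) and than in SCC-9 (0.61, adjusted p = 0.0782).

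GSTP1 was 7.98-fold higher in FaDu (adjusted p = 7.62e-13) and 4.48-fold higher in Detroit 562 (adjusted p = 2.13e-11) than in SCC-9, and FaDu exceeded Detroit 562 1.78-fold (adjusted p = 2.48e-06, edgeR). GSTO1 ran the other way and was highest in SCC-9, with 3372, 3220 and 3122 normalized counts against 2401, 2424 and 2192 in FaDu, a log2 difference of -0.47 for FaDu against SCC-9 (SE 0.0733, adjusted p = 1.99e-05). GSTK1 (chr7:143244093-143270854), the kappa-class gene, had the smallest range over the untreated lines. Its log2 differences were -0.13 for Detroit 562 against FaDu, 0.18 for Detroit 562 against SCC-9 and 0.31 for FaDu against SCC-9, and none made a call. In all, 5 genes were called between untreated Detroit 562 and FaDu, 7 between Detroit 562 and SCC-9 and 8 between FaDu and SCC-9. The background was high: 61%, 65.4% and 64.2% of all tested genes were called in these comparisons.

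**Figure D3:**
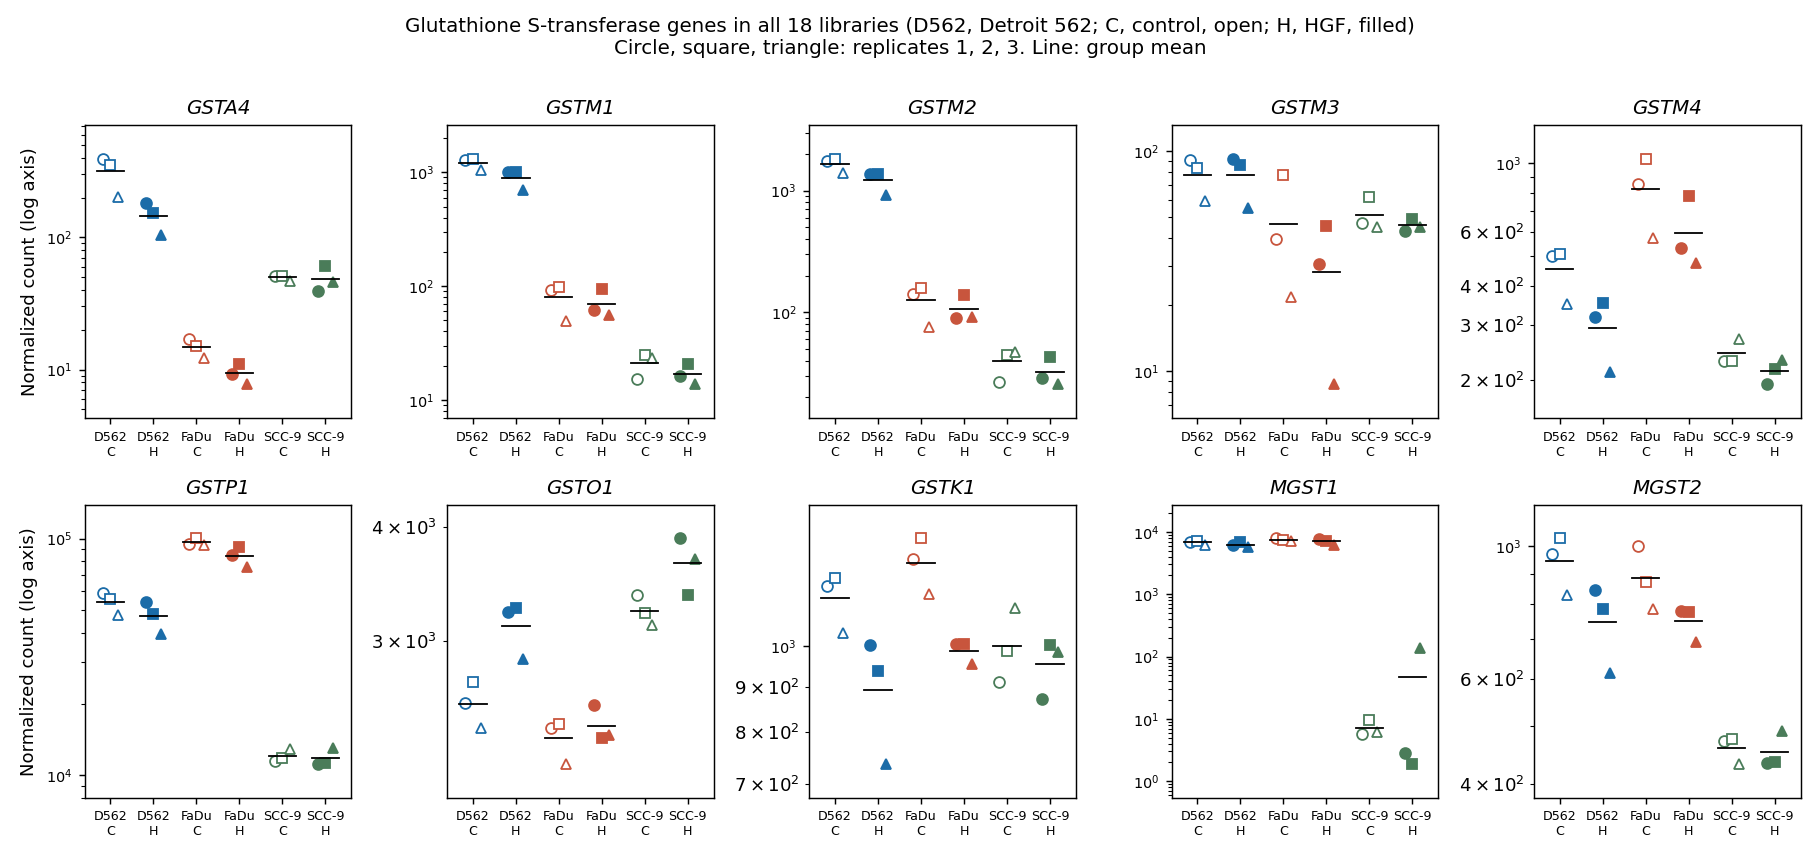
Normalized counts (log axis, 1 panel per gene with its own range) of the 10 genes in the 18 libraries, by group (D562, Detroit 562; C, control; H, HGF), with circles, squares and triangles for replicates 1, 2 and 3 and lines at group means. In Detroit 562 the triangles lie lowest in both groups for all 10 genes, and the MGST1 panel shows SCC-9 HGF 3 at 135.8 normalized counts against at most 9.528 in the other SCC-9 libraries.

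In Detroit 562, HGF lowered GSTA4 and GSTM4. GSTA4 fell from 395, 352.8 and 201.9 normalized counts in the controls to 181.5, 152.5 and 104.9 after HGF. The 2 groups did not overlap, and the third library was the lowest of each. The change was 2.16-fold (log2 fold change -1.11, SE 0.233, edgeR quasi-likelihood test, adjusted p = 0.00407). An exact permutation test of GSTA4 alone gave 0.1, the smallest value that 3 against 3 libraries allow. GSTM4 fell from 501.8, 508.6 and 349.8 normalized counts to 317.4, 352.8 and 211. Here the groups overlapped, since the lowest control lay just under the highest HGF library, but each HGF library was below the control of the same number. The change was 1.54-fold (log2 fold change -0.62, SE 0.235, adjusted p = 0.0606, edgeR). This call was lost without Detroit 562 Control 1 (adjusted p = 0.196), Control 2 (0.184) or HGF 3 (0.234). GSTM4 shares reads and 6815 bases with GSTM2, so part of the change may have been counted from either gene.

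These were the 2 of 10 genes called, both lower, against a background of 11.7% of all tested genes called lower, 6.16% called higher and 17.9% called in either direction. With no minimum fold change 3 more genes passed, GSTK1 and MGST2 lower and GSTO1 higher, where 34.1% of all tested genes did. GSTK1 had 1168, 1194 and 1034 normalized counts in the controls and 1003, 937.9 and 736.8 after HGF, with no overlap (log2 fold change -0.34, SE 0.106, adjusted p = 0.0282). MGST2 had 972.4, 1031 and 830.2 normalized counts in the controls and 845.2, 786.5 and 613.6 after HGF, where the highest HGF library exceeded the lowest control (log2 fold change -0.33, SE 0.12, adjusted p = 0.0507). GSTO1 moved against the others. It had 2561, 2698 and 2400 normalized counts in the controls and 3227, 3263 and 2861 after HGF, so that every HGF library lay above every control (log2 fold change 0.29, SE 0.0733, adjusted p = 0.0105, edgeR). Groups without overlap were common in Detroit 562. Of the 10 genes 4 were lower without overlap (GSTA4, GSTK1, GSTM1 and GSTM2), against 20.1% of all tested genes. GSTO1 was the 1 gene higher without overlap, against 18.1%.

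The remaining 5 genes did not pass in this fit. GSTM1 had 1286, 1320 and 1039 normalized counts in the controls and 1001, 1002 and 695.4 after HGF, without overlap (log2 fold change -0.43, 95% confidence interval -0.87 to 0.00, adjusted p = 0.133). GSTM2 followed it, at a log2 value of -0.45 (-0.92 to 0.03, adjusted p = 0.153), and of -0.49 (adjusted p = 0.168) outside GSTM1. GSTP1, the most abundant, had 58870, 55650 and 47360 normalized counts in the controls and 53760, 47940 and 39260 after HGF (log2 fold change -0.20, -0.43 to 0.03, adjusted p = 0.182). For MGST1 the log2 fold change was -0.11 (-0.99 to 0.77), and without SCC-9 HGF 3 it was -0.10 (-0.30 to 0.09). For GSTM3 it was 0.00 (-0.85 to 0.85). The wide interval of GSTM3 went with low counts, at most 96 raw counts in any Detroit 562 library.

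The replicate number carried much of the spread between libraries. Replicate 3 was the lowest of its group in both controls and HGF libraries for 10 of 10 genes in Detroit 562, where this held for 27.2% of all tested genes, for 8 of 10 in FaDu (23.3% of all genes) and for 0 in SCC-9 (16.1%). Within same-numbered pairs of Detroit 562 libraries 8 of the 10 genes were lower after HGF in 3 of 3 pairs, against 32.3% of all tested genes, and GSTO1 was higher in 3 of 3 (30.6%). When the replicate number entered the fit as a block, 4 genes were called lower, against 14.4% of all genes: GSTA4 (log2 fold change -1.10, adjusted p = 3.42e-06), GSTM4 (-0.63, 5.48e-05), GSTM1 (-0.44, 0.000594) and GSTM2 (-0.46, 0.00106). GSTP1, GSTK1 and MGST2 passed the p threshold in the blocked fit with log2 fold changes of -0.21, -0.35 and -0.34, short of the minimum fold change, which makes 7 of 10 genes lower by p alone, against 27.3% of all genes.

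**Figure D4:**
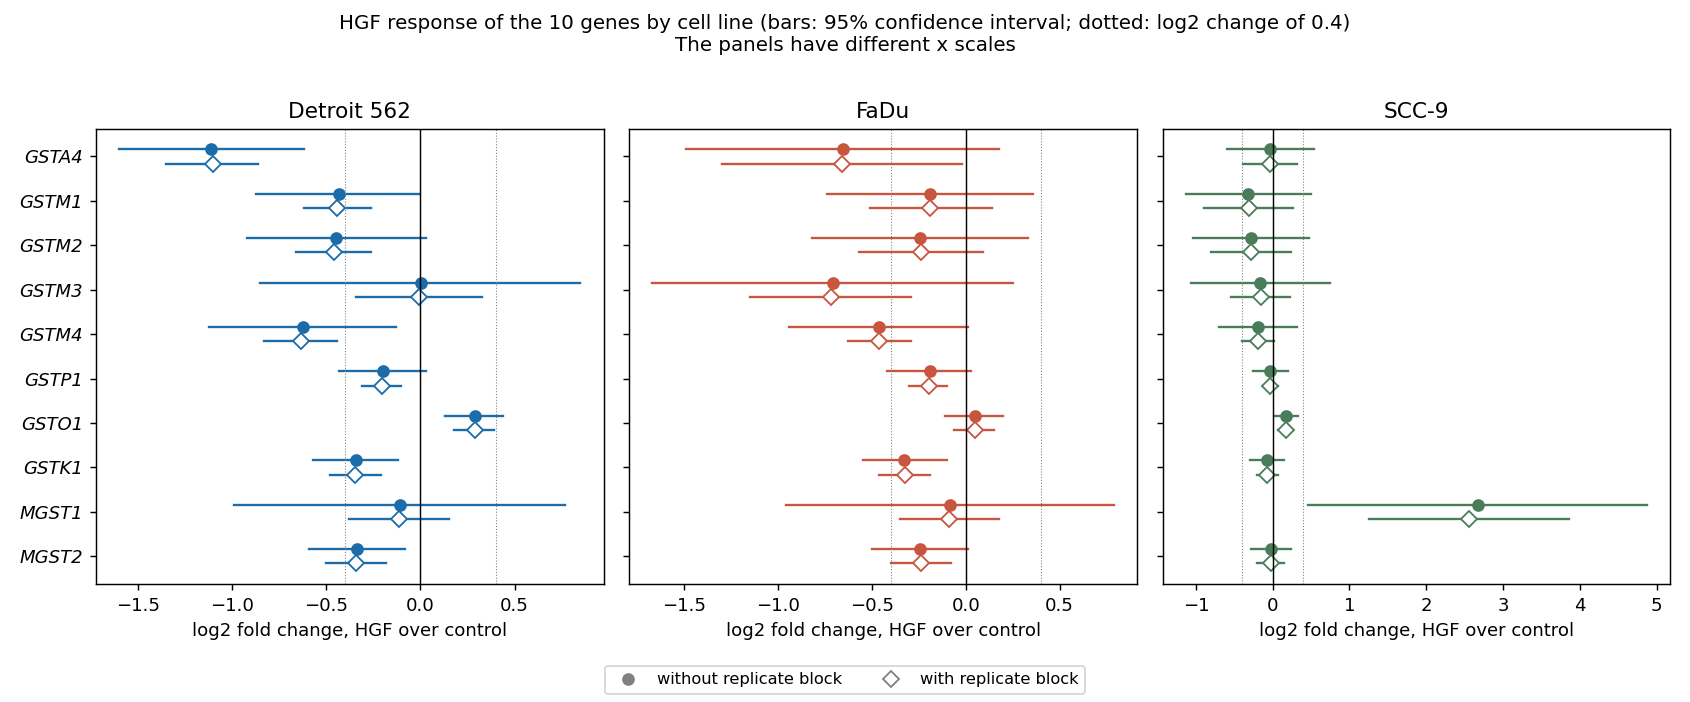
Log2 fold change of HGF over control (x axis, with 95% confidence intervals as bars) for the 10 genes in the 3 lines, without the replicate block (circles) and with it (open diamonds). In Detroit 562 GSTA4 lies lowest at -1.11 and GSTO1 to the right of 0 at 0.29, and the interval of MGST1 in SCC-9, 0.46 to 4.88, is the widest.

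In FaDu none of the 10 genes was called by edgeR without the block or by DESeq2, where 0.0258% of all tested genes were called higher by edgeR and 0% lower. The share of all genes called by DESeq2 is not given here, for this or any other comparison. GSTK1 had an unadjusted p under 0.05, as did 8.06% of all genes. It had 1254, 1322 and 1145 normalized counts in the controls and 1005, 1005 and 954.3 after HGF, without overlap (log2 fold change -0.33, SE 0.106, adjusted p = 0.517). GSTP1 had 94940, 100100 and 93520 normalized counts in the controls and 84810, 91760 and 75960 after HGF, again without overlap (log2 fold change -0.19, SE 0.107, adjusted p = 0.641). GSTA4, with at most 17.14 normalized counts, and MGST2 were also lower without overlap, so that 4 of 10 genes were, against 5.36% of all genes. GSTM1 and GSTM2 were lower in 2 of 3 same-numbered pairs, with log2 fold changes of -0.19 and -0.24. With the replicate block 2 genes were called lower, against 3.6% of all genes. GSTM4 had 856.8, 1033 and 573.2 normalized counts in the controls and 530.8, 780.3 and 474.3 after HGF (blocked log2 fold change -0.46, SE 0.0792, adjusted p = 0.00193, edgeR). GSTM3 had 39.98, 77.53 and 21.65 normalized counts in the controls and 30.68, 45.37 and 8.729 after HGF (blocked log2 fold change -0.72, SE 0.201, adjusted p = 0.0324, edgeR). In both genes the groups overlapped, while each HGF library was below its same-numbered control. With the block, 5 of the 10 genes were lower by p alone, against 9.93% of all genes, and 0 higher, against 7.5%. They were GSTK1, GSTM3, GSTM4, GSTP1 and MGST2. In 3 of 3 same-numbered pairs 7 genes were lower after HGF in FaDu, against 23.3% of all genes, and 0 higher, against 20%.

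In SCC-9 none of the 10 genes was called by edgeR without the block or by DESeq2, which gave no p for MGST1, and 0% of all tested genes were called by edgeR in either direction. GSTO1 and MGST1 had unadjusted p-values under 0.05, as did 4.14% of all genes. GSTO1 was higher in 3 of 3 same-numbered pairs, with 3372, 3220 and 3122 normalized counts in the controls and 3890, 3371 and 3691 after HGF (log2 fold change 0.17, 95% confidence interval 0.02 to 0.33, adjusted p = 1). It was the 1 gene of the 10 higher in 3 of 3 pairs, against 23.9% of all tested genes. GSTM4 was the 1 gene lower, against 24.6%. For 0 of the 10 genes were the groups without overlap, against 17.4% of all genes. MGST1 had 5.754, 9.528 and 6.131 normalized counts in the controls and 2.875, 1.894 and 135.8 after HGF. Its log2 fold change was 2.67 (SE 1.05, adjusted p = 1), and it was the gene called with the replicate block (2.56, adjusted p = 0.032, against 0.562% of all genes called higher). Without SCC-9 HGF 3 the log2 fold change of MGST1 was -1.54 (adjusted p = 1), and with the block as well it was -1.63 (adjusted p = 0.41). GSTP1 had 11490, 11800 and 12860 normalized counts in the SCC-9 controls and 11120, 11270 and 12980 after HGF (log2 fold change -0.03, 95% confidence interval -0.26 to 0.20), and GSTM4 was lower in 3 of 3 pairs (-0.19, -0.70 to 0.32). For the 9 genes other than MGST1 the log2 fold changes in SCC-9 lay between -0.31 (GSTM1) and 0.17 (GSTO1). Without SCC-9 HGF 3 again 0 of the 10 genes were called, and the log2 fold changes were 0.17 for GSTO1 (-0.02 to 0.35), -0.11 for GSTP1 (-0.36 to 0.14), -0.25 for GSTM4 (-0.84 to 0.34) and -0.19 for GSTM1 (-1.09 to 0.72). For the remaining 5 genes they were, with and without this library, -0.03 and 0.01 (GSTA4), -0.07 and -0.09 (GSTK1), -0.28 and -0.14 (GSTM2), -0.16 and -0.15 (GSTM3) and -0.02 and -0.08 (MGST2).

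The difference between the lines in their response to HGF was tested as an interaction. No gene of the 10 passed an adjusted p below 0.1 in any of the 3 pairs of lines, by edgeR without the block or by DESeq2, where 0.239% (Detroit 562 against FaDu), 0.924% (Detroit 562 against SCC-9) and 0% (FaDu against SCC-9) of all genes did in edgeR. Between Detroit 562 and FaDu 1 gene, GSTO1, had an unadjusted p under 0.05 (difference of log2 fold changes 0.24, SE 0.104, adjusted p = 0.391), against 11.6% of all genes. Between Detroit 562 and SCC-9 GSTA4 (-1.08, SE 0.356, adjusted p = 0.187) and MGST1 (-2.78, adjusted p = 0.272) did, against 15.4%, and between FaDu and SCC-9 MGST1 did (-2.75, adjusted p = 1), against 2.18%. Without SCC-9 HGF 3 the difference of GSTA4 was -1.11 (adjusted p = 0.297), and those of MGST1 were 1.43 (adjusted p = 0.329) and 1.47 (adjusted p = 1). With the block GSTO1 (0.24, adjusted p = 0.0377) and GSTM3 (0.71, adjusted p = 0.083) responded more positively in Detroit 562 than in FaDu, where 19.1% of all genes passed. Against SCC-9, 6 genes responded more negatively in Detroit 562 in the blocked fit, where 26.9% of all genes passed in either direction and 13.2% in this one: GSTA4, GSTK1, GSTM4, GSTP1, MGST1 and MGST2. Without SCC-9 HGF 3, 3 of them passed, GSTA4 (-1.05, adjusted p = 0.0138), GSTK1 (-0.32, 0.0554) and GSTM4 (-0.46, 0.0718). The passing difference of MGST1 between FaDu and SCC-9 (-2.65, adjusted p = 0.0728, against 1.32% of all genes) turned to 1.56 (adjusted p = 0.547) without that library.

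Of 14 other genes of the family in the table, 9 passed the filter on low counts. In Detroit 562, 3 of these 9 were called lower and 0 higher after HGF by edgeR, with a median log2 fold change of -0.47 against -0.01 over all tested genes, of which 11.7% were called lower and 6.16% higher. PTGES, the prostaglandin E synthase related to the microsomal enzymes, fell 1.76-fold (adjusted p = 0.00903), with 2730, 3144 and 2665 normalized counts in the controls and 1931, 1928 and 996.7 after HGF. GSTZ1, the zeta-class enzyme of tyrosine breakdown, fell 1.4-fold (adjusted p = 0.0422), and LTC4S, the leukotriene C4 synthase, 2.61-fold from at most 18.9 normalized counts (adjusted p = 0.0852). MGST3 (log2 fold change -0.14), GSTO2 (-0.03), GSTT2B (-0.14), GSTCD (0.04), GSTM5 (-0.47) and ALOX5AP (-1.04) were not called. ALOX5AP, whose value enters the median, was near the floor, with at most 3 raw counts in any Detroit 562 library. In the SCC-9 HGF libraries ALOX5AP had 20 to 29 raw counts. GSTA1, GSTA2, GSTA3, GSTA5 and HPGDS were too low to test, with at most 7.623 normalized counts in any Detroit 562 library. In FaDu and SCC-9 0 of the 9 were called, with and without the block, and in SCC-9 also without SCC-9 HGF 3. Of all tested genes, 0.0258% were called in FaDu and 0% in SCC-9 without the block. With the block 3.6% were called lower and 2% higher in FaDu, and 1.41% lower and 0.562% higher in SCC-9.

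A list of 39 genes of glutathione metabolism was set beside them, of which 37 were tested. In Detroit 562, 11 were called lower and 0 higher after HGF, and the median log2 fold change was -0.24 against -0.01 over all tested genes, of which 11.7% were called lower and 6.16% higher. With the replicate block 13 were called lower, ABCC3 and ACY3 in addition, and 1 higher, GPX3, against 14.4% and 7.13% of all genes. GPX3 had 3 raw counts in Detroit 562 HGF 3 and 0 in the other 5 libraries of the line. Among 7 genes of synthesis and precursor supply 1 was called, GCLC, the catalytic subunit of the rate-limiting glutamate-cysteine ligase. It had 24730, 21890 and 11880 normalized counts in the controls and 10050, 10770 and 6308 after HGF (log2 fold change -1.11, SE 0.276, adjusted p = 0.00944). GCLM, its modifier subunit (-0.22, adjusted p = 0.197), and SLC7A11, the cystine transporter (-0.26, adjusted p = 0.411), were not called. Among 6 genes of glutathione reduction, NADPH supply and the linked pentose phosphate pathway 4 were called lower: IDH1 (-0.57), PGD (-0.56), TKT (-0.50) and ME1 (-0.41). Glutathione reductase GSR was not (-0.23, adjusted p = 0.233, edgeR). Without SCC-9 HGF 3 the call of ME1 was lost.

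Among 9 peroxidases, glutaredoxins and thioredoxin genes 1 was called lower, GPX2, the epithelial glutathione peroxidase (log2 fold change -1.13, adjusted p = 0.0299). Of 15 tested genes that break down or export conjugates 5 were called lower. They were the gamma-glutamyl transferases GGT6 (-1.63, adjusted p = 0.00386), GGT1 (-0.88, 0.00544) and GGT7 (-0.73, 0.00439) and the exporters ABCC5 (-0.61, 0.00649) and ABCC1 (-0.44, 0.0141). The conjugate exporters ABCC2 (0.02) and ABCC3 (-0.49, adjusted p = 0.165) were not called, but ABCC3 was called lower with the block (-0.50, adjusted p = 0.00267). The count of 11 fell to 5 without Detroit 562 Control 1 or HGF 3 and to 7 without Control 2. The shares of all tested genes called in these 3 fits are not given here. In FaDu and SCC-9 0 of the 37 were called by edgeR without the block or by DESeq2. Of all tested genes, edgeR without the block called 0.0258% in FaDu and 0% in SCC-9. With the block 5 were called lower and 1 higher in FaDu, against 3.6% and 2% of all genes. In SCC-9 the block gave 0 calls lower or higher, against 1.41% and 0.562%. Without SCC-9 HGF 3 again 0 were called in SCC-9, with and without the block.

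**Figure D5:**
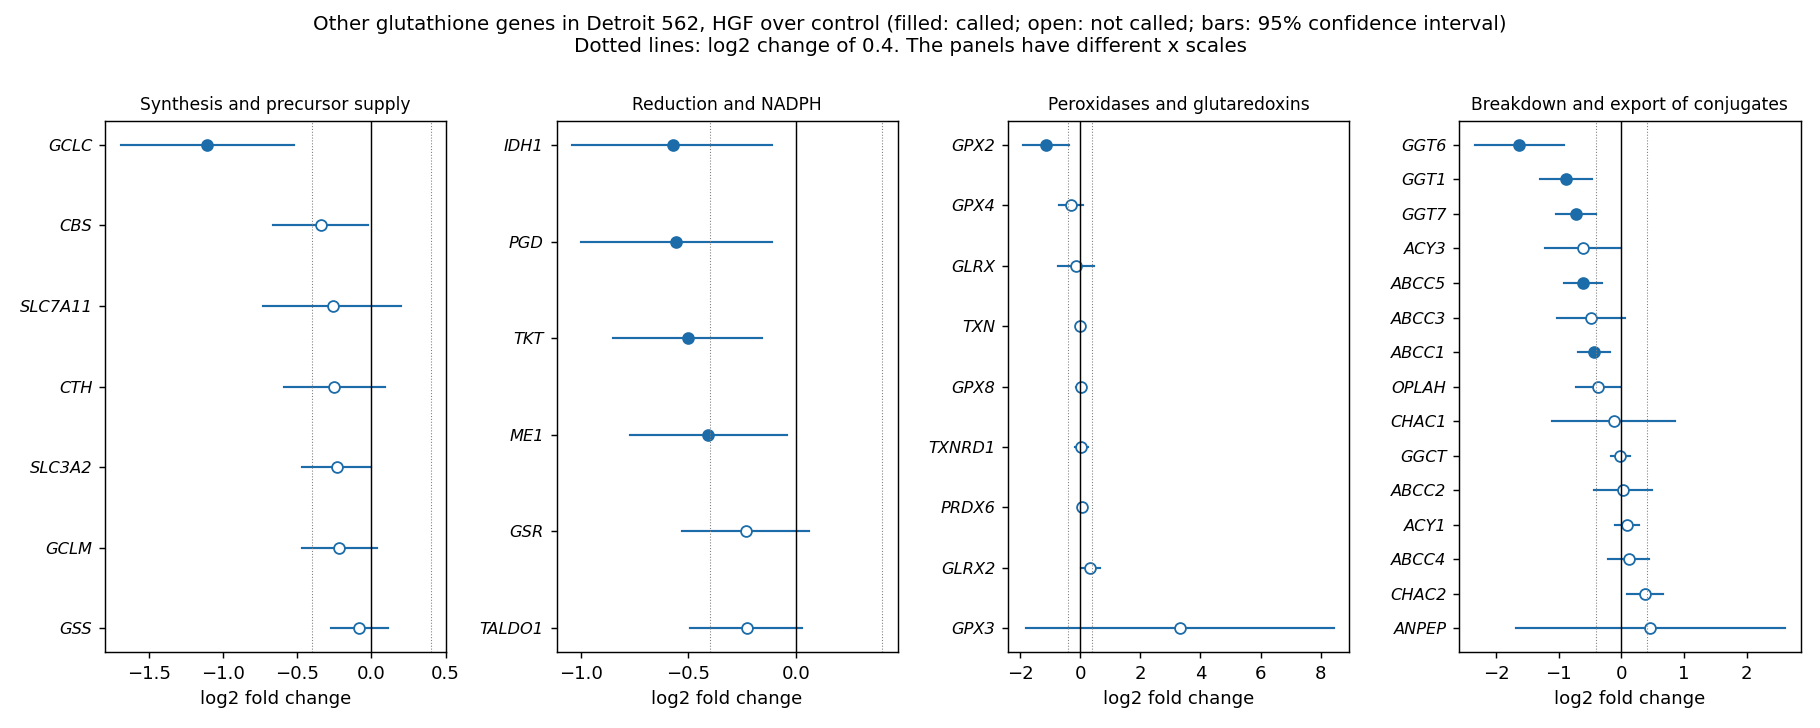
Log2 fold change of HGF over control in Detroit 562 (x axis, 95% confidence intervals as bars) for the 37 tested genes of glutathione metabolism in 4 functional groups, filled where called. All 11 filled points lie left of 0, with GGT6 the lowest at -1.63.

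NFE2L2, which encodes NRF2, was lower after HGF in Detroit 562, with 8747, 8275 and 7211 normalized counts in the controls and 6003, 6079 and 5388 after HGF (log2 fold change -0.47, SE 0.0687, adjusted p = 0.000653, edgeR). These are RNA counts, and any link between NFE2L2 and the changes above was not tested. KEAP1, the adaptor that targets NRF2 for degradation, was not called (log2 difference -0.19, adjusted p = 0.107). DUSP6 and SPRY4, feedback genes of the ERK pathway used as a check of the treatment, rose in Detroit 562 (log2 fold changes 1.53 and 1.95, adjusted p = 0.000247 and 0.00433). In FaDu DUSP6 rose as well (1.44, adjusted p = 0.0115), while the value of SPRY4 there is not given here. In SCC-9 neither gene was called without the block, where 0% of all tested genes were. DUSP6 (0.48, adjusted p = 0.00766) and SPRY4 (0.88, adjusted p = 0.00314) were called higher there in the blocked fit. Without SCC-9 HGF 3 the blocked values were 0.40 for DUSP6 (adjusted p = 0.172), which was then not called, and 0.72 for SPRY4 (adjusted p = 0.0709).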

How the data were processed

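RNA of 18 samples was sequenced from poly(A)-selected, strand-specific libraries with 75-base single-end reads. According to the study's methods and the submitters' processing notes the authors demultiplexed (bcl2fastq 2.20.0.422), trimmed (cutadapt 1.16) and aligned the reads (STAR 2.5.2b, GRCh38.p12, GENCODE 28), counted them with bedtools over each gene's whole extent, introns included, and used DESeq2 1.22.1. The authors deposited raw counts per gene, 35304770 to 44003970 per library. No sample column was left unused.

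Counts were tested as deposited with the quasi-likelihood test of edgeR 4.0.16 (R 4.3.3, TMM factors, filterByExpr, all 18 libraries, 6 groups) and Benjamini-Hochberg adjustment over all 15475 tested genes. Calls required an adjusted p below 0.1 together with a log2 difference of 0.4 or more in size, or, for interactions, the adjusted p alone. Normalized counts are counts divided by TMM-scaled library factors. Levels per kb use exon unions of GENCODE 44. Exact permutation tests were two-sided. The fits were tested on simulated data.

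Same-numbered control and HGF libraries deviated together from their group means over genes in all 9 pairs (correlation 0.161 to 0.563). For other numbers the average was -0.227 to -0.136. Taking deviations from group means makes that average negative where same-numbered libraries correlate, so it is no separate evidence of pairing. Because of the same-number correlations, values of a fit blocked on this number, line by line, stand beside results they change. The members and gene lists were chosen with earlier results of these data known. All 10 members are reported. Of the other lists, genes called in an HGF comparison were named, with GCLC, GCLM, GSR, SLC7A11 and ABCC1 to ABCC3 and, for context, MET, NFE2L2, KEAP1, DUSP6 and SPRY4. Alternatives were other scalings (DESeq2 size factors, upper quartile), filters, thresholds and transcript lengths, DESeq2 1.42.0, fits of the compared lines alone and each library left out. Chosen after seeing the data were fits without SCC-9 HGF 3 throughout, GSTM2 counts outside GSTM1 and canonical transcript lengths. GSTT1, GSTT2 and GSTT4 were not analysed here, and 1 gene of the glutathione list is not reported here.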

Additional observations from a re-analysis of the deposited data

How the results depend on the processing

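Of 1081 values of single genes under alternatives, 1020 kept their direction and side of the threshold, 31 passed only under the alternative, 3 passed no longer and 27 changed sign. The number of genes called in Detroit 562 after HGF, 2, became 4 with the replicate block (also with GSTM2 counted outside GSTM1), 5 with no minimum fold change, 1 at the stricter threshold, and ranged from 1 to 6 with 1 library left out: 6 without Control 3, 4 without HGF 1 and 1 without Control 1, Control 2 or HGF 3. The glutathione list, 11, had 3 calls at the stricter threshold and 5 to 15 with 1 library left out. The shares of all tested genes called at the stricter threshold or with 1 library left out are not given here. Those counts therefore describe the fits and cannot be read as a result about these genes. With the block, 2 genes and 6 list genes were called in FaDu and 1 gene in SCC-9, and 2 (Detroit 562 against FaDu), 6 (Detroit 562 against SCC-9) and 1 (FaDu against SCC-9) differed in response, each as many with GSTM2 outside GSTM1. The 6 became 3 without SCC-9 HGF 3 as well, and without the block 0 to 1 differed there with 1 library left out, 1 without Detroit 562 Control 3. The block changed no other count by over 1.5 times. At the stricter threshold 3 rather than 5 genes differed between untreated Detroit 562 and FaDu.

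The changes of sign were of values near 0, apart from MGST1. GSTM3 in Detroit 562, 0.00, was -0.01 with the block and in both DESeq2 fits, -0.00 with DESeq2 size factors or the stricter filter, -0.02 with upper-quartile factors and -0.16 to 0.20 with 1 library left out. With 1 library left out, MGST1 in FaDu ranged from -0.16 to 0.01 and in SCC-9, GSTA4 ranged from -0.22 to 0.10, GSTK1 from -0.13 to 0.00, GSTP1 from -0.11 to 0.02 and MGST2 from -0.08 to 0.01, as did GSTM3 between untreated FaDu and SCC-9 from -0.73 to 0.19. MGST1 in SCC-9 ranged from -1.54 to 3.24, and was -1.63 with the block and without SCC-9 HGF 3. Its difference in response ranged from -3.35 to 1.43 between Detroit 562 and SCC-9 and from -3.32 to 1.47 between FaDu and SCC-9, and was 1.53 and 1.56 with the block and without that library. DESeq2 gave no p for MGST1, so it called 6 and 7 rather than 7 and 8 genes between SCC-9 and untreated Detroit 562 and FaDu. Taking the longest transcript as the length, the share of GSTP1 was 89.1% in FaDu, 79.5% in Detroit 562 and 65.1% in SCC-9, and with the canonical one it was 90.2% in FaDu and 82.1% in Detroit 562. The causes were not tested. Depth limited GSTA4 and GSTM1 in FaDu and SCC-9, with 8 to 98 raw counts per library, and MGST1 in SCC-9.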
